A study of Mus musculus with 18 samples.

Results

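The genes followed here are 33 hepatocyte genes, which encode plasma proteins, drug-metabolising and amino acid enzymes and carriers of fatty acid metabolism. They were chosen by name, as the rows of the deposited count table that carry these gene symbols, and make up 33 of its 35667 genes. The study cultured mouse hepatic stellate cells (HSC), the vitamin A storing mesenchymal cells of the liver, with intrahepatic cholangiocyte organoids (ICO), bile duct epithelium grown as hollow spheres and used as a model of liver progenitor cells. Bulk RNA was sequenced from 18 libraries in 6 groups of 3. HSC came from healthy wild-type mice and were taken directly after isolation (day 0), after 7 days alone on plastic, after 7 days alone in Matrigel (a basement membrane gel), or after 7 days in Matrigel together with ICO. The ICO carried the fluorescent tag dTomato and were taken after 7 days in Matrigel, alone or from the co-culture. The Matrigel cells were sorted before their RNA was isolated. The stated medium was the same for all and contained EGF, FGF10, HGF and RSPO3. The mice's ages and the number of organoid lines are not stated in the labels. Nothing in them says that replicate libraries had different animals or cultures as their source, so the p-values below measure only the spread between these libraries.

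Hepatocytes make most of the proteins dissolved in blood plasma: albumin and other carriers, the apolipoproteins of lipid particles, fibrinogen and prothrombin, and the serpins that inhibit proteases. Their messages are among the most abundant in liver, and hepatocytes can release RNA when a liver is dissociated, so an HSC preparation can hold hepatocyte transcripts. HNF1, HNF4 and C/EBP factors are known regulators of these genes in hepatocytes, and interleukin 6 raises fibrinogen and haptoglobin through STAT3 in the acute phase response. Cholangiocytes and hepatocytes share an origin in the hepatoblast of the fetal liver.

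The libraries held 6907479 to 22158674 estimated counts. Stellate markers summed to 63850 to 72532 CPM, which are counts scaled to the size of each library, here with TMM factors, at day 0 and to 3.96 to 103 CPM in ICO. Cholangiocyte markers, 16 genes such as Krt19 and Epcam, summed to 6643 to 8766 CPM in ICO, 21 to 22.6 CPM at day 0, where Cftr had 0 counts, and 10.9 to 11.9 CPM on plastic. In HSC from Matrigel all 16 were detected, and their sum was 174 to 2050 CPM alone and 1190 to 3329 CPM in co-culture. Macrophage markers (12 genes) summed to 836 to 878 CPM at day 0, 95.1 to 461 on plastic, 2245 to 3180 in HSC alone in Matrigel and 122 to 187 in HSC from co-culture; Clec4f, Marco, Cd5l and Timd4 had 0 counts on plastic, and Clec4f and Timd4 had 0 counts in HSC from co-culture. The higher macrophage sum in HSC alone in Matrigel than at day 0 was not shared by all 12 genes. In edgeR (adjusted p under 0.05), 3 were higher than at day 0: Lyz2, Cd68 and Adgre1. Lower were 4, Clec4f and Cd5l among them, and the median log2 change of the 12 was negative. Red cell markers at day 0 summed to 39.1 to 60.7 CPM and endothelial markers to 1452 to 1483 CPM.

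At day 0 every one of the 33 genes was detected in every library. Their summed level was 30981, 30557 and 31976 CPM, with a mean of 31172 CPM, or 24788 CPM without the TMM factors. The day 0 libraries were alike: the coefficient of variation of a single gene was between 1.03% and 10%, with a median of 4.34%. Per kilobase of exon, albumin (Alb), the main carrier of fatty acids and hormones in plasma, was the highest of the set at 3582 ± 93.4 CPM per kb (SD, n = 3). Apoa2, a protein of high density lipoprotein, followed at 2841 ± 95 CPM per kb, and the protease inhibitor Serpina3k at 1035 ± 14.8 CPM per kb. Ttr (993 ± 65.6 CPM per kb), which encodes the thyroxine carrier transthyretin, did not differ beyond its spread from Serpina3k or from Serpina1b (981 ± 12.9 CPM per kb), an alpha-1-antitrypsin. The lowest of the set per kilobase was Apob at 11.6 CPM per kb. Fewer hepatocytes and less RNA per cell cannot be told apart in bulk samples.

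**Figure D1:**
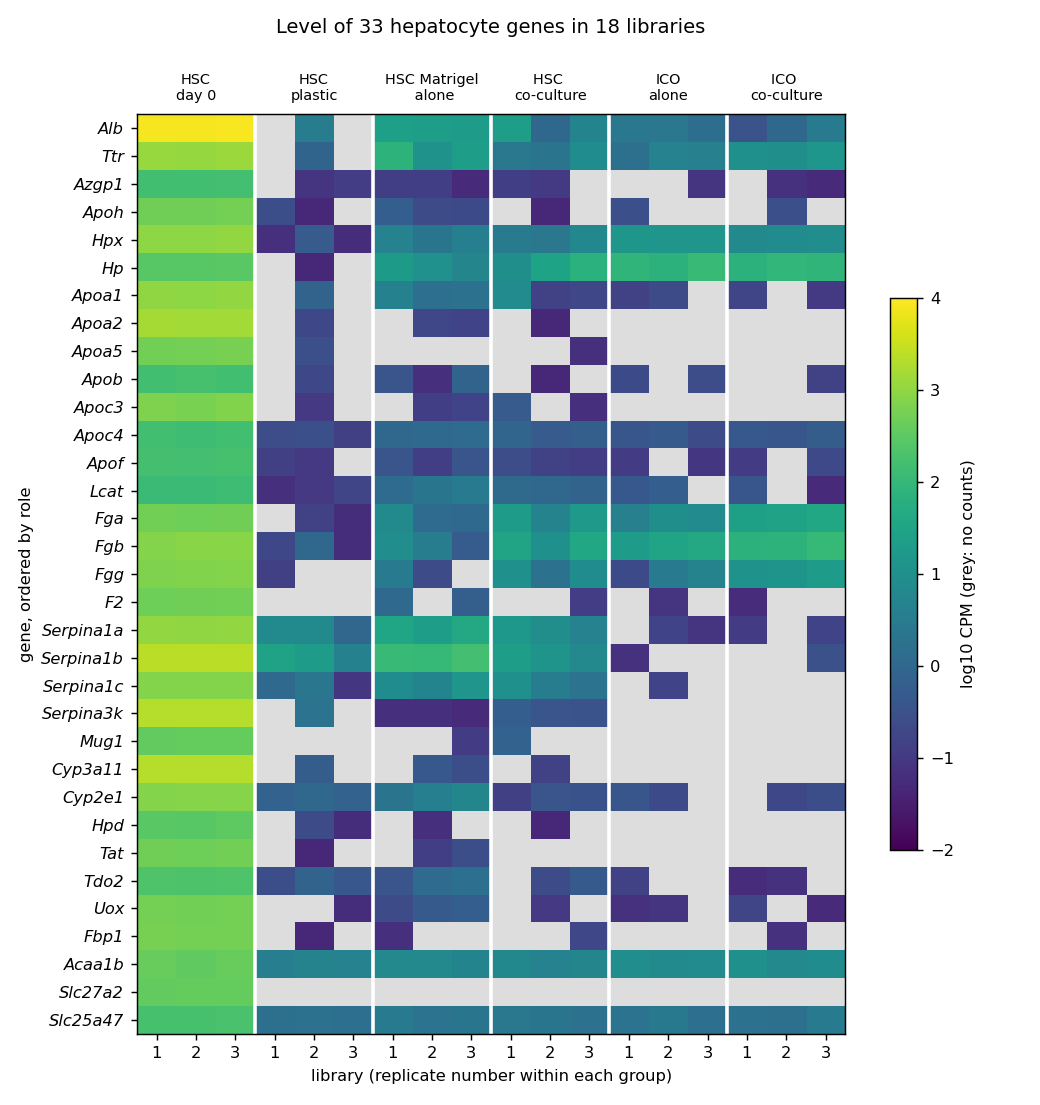
Level of each of the 33 genes (rows, ordered by role) in each of the 18 libraries (columns, 3 replicates a group), as log10 CPM; grey cells had no counts. All rows are filled at day 0. In the 15 later libraries Acaa1b, Slc25a47, Apoc4, Fgb and Hpx have counts throughout and Slc27a2 has none.

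The sequences just upstream of 5 genes are shown because these genes carry the contrasts below. Alb and Serpina1b were higher in HSC alone in Matrigel than in ICO alone, while the 3 fibrinogen chains were found in ICO. Each is the 250 bases before the annotated start, from RefSeq (GRCm38.p6), written 5′ to 3′ on the gene's own strand. RefSeq promoters were matched for 28 of the 33 genes. Capitals mark matches, on either strand, to GTTAATNAT (HNF1), TTGCNNAA (C/EBP) or TTCCNGGAA (STAT3); the printed matches do not overlap each other. The letters CAAAGTCCA (HNF4) and TATAAA were also searched and are not marked. The genes and motifs shown were chosen after the values were seen.
Alb, chr5:90460620-90460869, plus strand: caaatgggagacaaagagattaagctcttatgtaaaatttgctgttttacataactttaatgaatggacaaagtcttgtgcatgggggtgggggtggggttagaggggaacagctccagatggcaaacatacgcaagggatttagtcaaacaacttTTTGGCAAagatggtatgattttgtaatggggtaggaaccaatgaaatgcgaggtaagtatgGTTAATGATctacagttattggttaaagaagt
Fga, chr3:83025903-83026152, plus strand: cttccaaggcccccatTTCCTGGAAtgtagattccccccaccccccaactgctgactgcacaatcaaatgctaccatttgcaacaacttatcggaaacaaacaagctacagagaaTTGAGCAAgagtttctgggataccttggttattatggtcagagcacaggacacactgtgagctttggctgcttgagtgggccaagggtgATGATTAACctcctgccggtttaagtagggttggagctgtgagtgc
Fgb, chr3:83049864-83050113, minus strand: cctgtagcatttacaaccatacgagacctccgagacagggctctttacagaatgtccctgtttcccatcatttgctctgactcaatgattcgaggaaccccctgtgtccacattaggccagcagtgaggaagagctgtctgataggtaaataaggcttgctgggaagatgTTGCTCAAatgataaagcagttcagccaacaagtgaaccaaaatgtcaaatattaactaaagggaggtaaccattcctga
Fgg, chr3:83007474-83007723, plus strand: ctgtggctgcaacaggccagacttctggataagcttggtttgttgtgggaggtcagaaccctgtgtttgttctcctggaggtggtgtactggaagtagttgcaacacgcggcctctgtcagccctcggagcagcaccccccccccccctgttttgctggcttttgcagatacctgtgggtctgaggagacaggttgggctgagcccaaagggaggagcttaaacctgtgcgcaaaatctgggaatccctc
Serpina1b, chr12:103738190-103738439, minus strand: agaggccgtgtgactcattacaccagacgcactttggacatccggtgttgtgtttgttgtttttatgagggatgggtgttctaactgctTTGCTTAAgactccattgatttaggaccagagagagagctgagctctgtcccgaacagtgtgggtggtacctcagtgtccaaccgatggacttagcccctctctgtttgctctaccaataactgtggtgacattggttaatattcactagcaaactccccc
Counted from the start, with -1 for the base just before it, the HNF1 letters begin at -32 in Alb and at -46 in Fga. The STAT3 letters begin at -234 in Fga. The C/EBP letters begin at -94 in Alb, -135 in Fga, -80 in Fgb and -161 in Serpina1b. The 3 marked motifs were not found in the Fgg window. Among the 32851 promoters of 300 bases (250 before and 50 after the start), 0.801% hold the HNF1 letters, 10.8% the C/EBP letters and 1.15% the STAT3 letters. Of the 30 promoters of the matched genes, 6.67% hold the HNF1 letters and 30% the C/EBP letters. A match is a description of the letters in the window.

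After 7 days all 3 HSC cultures had lost nearly all of this RNA. The summed level was 45.7, 49.1 and 13.4 CPM on plastic, 324, 207 and 298 CPM alone in Matrigel, and 169.9, 88.4 and 176 CPM in co-culture. The median gene stood at 0.0249% of its day 0 mean on plastic, 0.253% alone in Matrigel and 0.105% in co-culture. In edgeR's quasi-likelihood test all 33 were lower than at day 0 in each culture, beside 30.5% of all 17020 genes tested on plastic, 21.5% alone in Matrigel and 24.8% in co-culture. None of the 33 was higher, where 27.5%, 19.3% and 28.9% of all genes were. The median log2 change of the 33 was -11.75 on plastic, -8.63 alone in Matrigel and -9.96 in co-culture, where the medians of all genes were -0.10, 0.09 and 0.09. The 33 passed the filter on low counts in this fit through their day 0 level, and their choice rested on that level, so the counts describe the set and are no independent test. The 3 comparisons share the day 0 libraries. Whether the RNA found at day 7 was left from day 0 or made in culture was not tested. For each of the 33, all later libraries lay below all day 0 libraries. The share of all genes that did so was not counted, and the choice by day 0 level bears on this too.

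**Figure D2:**
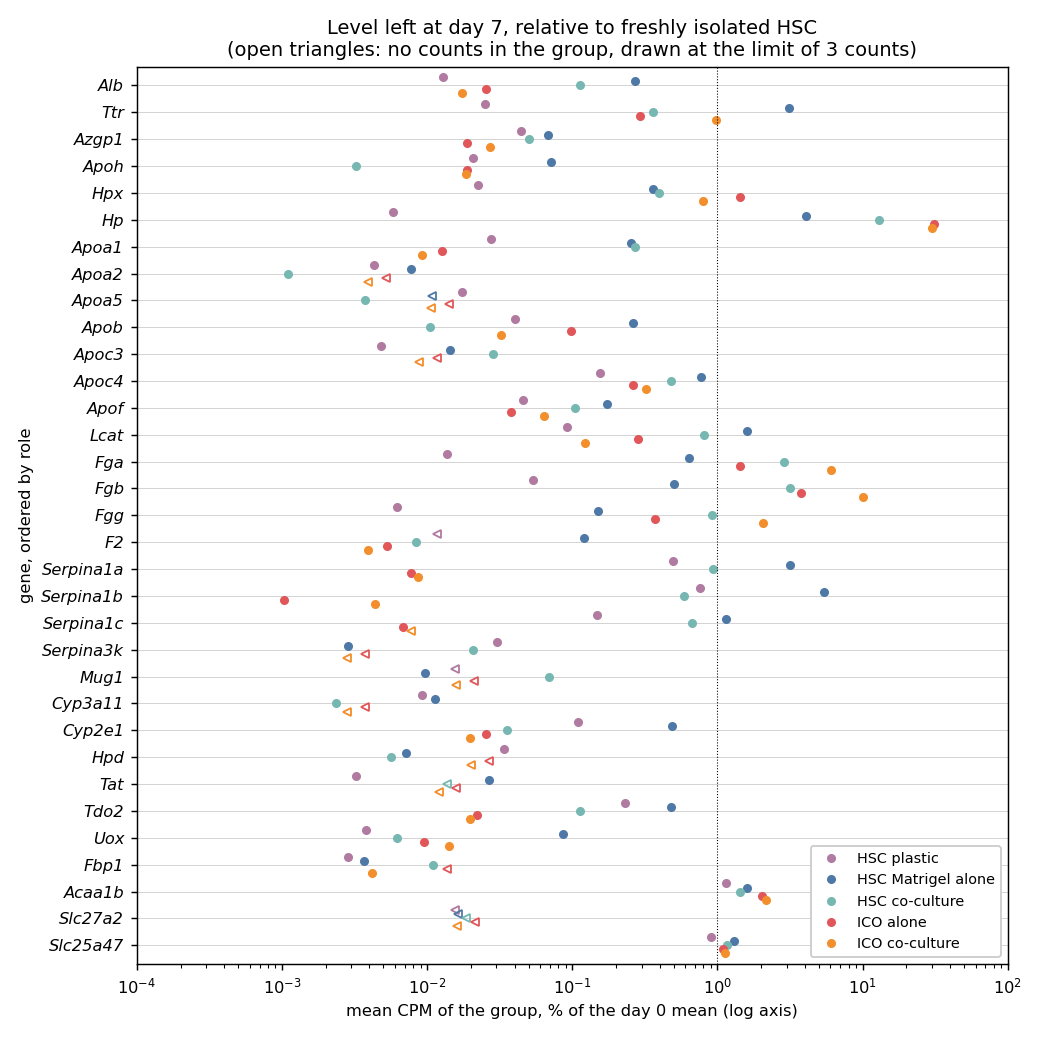
Mean CPM of each gene in the 5 day 7 groups as a percentage of its day 0 mean (log axis; 3 libraries a group); open triangles mark groups without counts, drawn at the limit that 3 counts allow. Most genes lie below 1% of day 0 in every group, and Hp in ICO reaches 31.1% alone and 30% in co-culture.

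Among the carriers, Alb fell from 8402, 8163 and 8600 CPM at day 0 to 0, 3.23 and 0 CPM on plastic. It was 25, 22.5 and 20.4 CPM in HSC alone in Matrigel and 22.2, 1.06 and 5.16 CPM in HSC from co-culture. On plastic only the second library held albumin counts, and in co-culture the first library stood above the other 2. The log2 change of Alb on plastic against day 0 was -12.80 ± 1.55 (SE, adjusted p = 6.58e-05). Ttr was 1164, 1108 and 1261 CPM at day 0, 0, 0.881 and 0 CPM on plastic, 74, 12.3 and 23.5 CPM alone in Matrigel and 2.47, 2.02 and 8.24 CPM in co-culture. Hemopexin (Hpx), which binds free heme, went from 951, 952 and 1076 CPM to 0.0683, 0.538 and 0.0611 CPM on plastic. It was 4.57, 2.16 and 3.89 CPM alone in Matrigel and 2.99, 2.42 and 6.42 CPM in co-culture, and these 2 groups overlapped. Haptoglobin (Hp), which binds free hemoglobin, was 274, 276 and 297 CPM at day 0 and left 1 count on plastic, 0.00578% of day 0 (95% exact Poisson interval 0.000174% to 0.0384%, for counting error only). In Matrigel it was 18.3, 10.9 and 5.38 CPM alone and 9.88, 30.4 and 69.6 CPM in co-culture. At 13% of its day 0 mean, Hp stood highest of the set in HSC from co-culture. In ICO of the same culture it was 72.9, 95.9 and 85.4 CPM, and the part of ICO RNA in the HSC level was not tested. Apoh, a phospholipid-binding plasma protein, fell by 10.45 ± 0.36 on the log2 scale alone in Matrigel (adjusted p = 3.49e-10) and left 1 count in co-culture, 0.00323% of day 0 (0.000112% to 0.0247%). Azgp1, a lipid-binding plasma glycoprotein, fell by 10.47 ± 0.33 alone in Matrigel (adjusted p = 1.16e-10) and left about 3 counts in co-culture, 0.0507% of day 0 (0.00924% to 0.131%).

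The apolipoproteins nearly vanished. Apoa2 was 1584, 1492 and 1500 CPM at day 0 and at most 0.196 CPM in any later library. Its log2 change was -14.15 ± 0.46 on plastic (adjusted p = 1.79e-10) and -13.53 ± 0.44 alone in Matrigel (adjusted p = 2.48e-10), and 1 count remained in co-culture, 0.0011% of day 0 (3.82e-05% to 0.00841%). Apoa5, a regulator of plasma triglyceride, was 538, 563 and 581 CPM at day 0 and had no counts in HSC alone in Matrigel, at least 9294-fold lower (floor of 3 counts over the group). In co-culture Apoa5 left 1 count, 0.00374% of day 0 (0.000104% to 0.0229%). Apoc3, an inhibitor of lipoprotein lipase, left 2 counts on plastic, 0.00478% of day 0 (0.00069% to 0.0206%). Apoa1, the main protein of high density lipoprotein, kept more: 4.38, 1.59 and 1.7 CPM alone in Matrigel and 7.8, 0.151 and 0.189 CPM in co-culture, against 994, 952 and 1084 CPM at day 0. The first co-culture library again stood above the other 2. Lcat, the plasma enzyme that esterifies cholesterol on these particles, was 121, 123 and 136 CPM at day 0 and 1.27, 2.1 and 2.74 CPM alone in Matrigel. The remaining levels of Apob, Apoc4 and Apof in the 3 HSC cultures ranged from 0 to 1.28 CPM, against 139 to 179 CPM at day 0.

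Among the clotting factors, prothrombin (F2) was 473, 496 and 529 CPM at day 0 and had no counts on plastic, at least 8559-fold lower. It fell by 9.67 ± 0.56 alone in Matrigel (log2, adjusted p = 2.04e-06) and left 2 counts in co-culture, 0.0084% of day 0 (0.00112% to 0.0333%). The fibrinogen chains Fga, Fgb and Fgg, which assemble into the clot-forming hexamer, were expressed together at day 0 at 481 to 520.1, 782 to 877 and 698 to 769 CPM. On plastic they were at most 1.08 CPM, and Fgg left 2 counts, 0.00623% of day 0 (0.000643% to 0.0192%). Fgg fell by 9.41 ± 1.02 alone in Matrigel (adjusted p = 7.20e-05) and had a log2 change of -6.83 ± 0.88 in co-culture (adjusted p = 0.000129). Fgb made up 39.1% to 42.1% and Fgg 34.9% to 36.1% of the summed fibrinogen CPM at day 0. In HSC from co-culture the Fgg share was 10.5% to 16%, below every day 0 library. The other Matrigel groups were below day 0 too: 0% to 16.2% in HSC alone, 0.875% to 8.74% in ICO alone and 10.2% to 12.9% in ICO from co-culture.

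The protease inhibitors stood at different shares of their day 0 level. Serpina1b was 2405, 2345 and 2360 CPM at day 0 and still 29.4, 20.2 and 4.28 CPM on plastic, 117, 105 and 165 CPM alone in Matrigel and 22.4, 12.7 and 6.62 CPM in co-culture. Serpina1b alone gave 49.8% of the summed CPM of the 33 genes on plastic and 46.7% in HSC alone in Matrigel. Serpina3k, which was 2110, 2163 and 2110 CPM at day 0, was at most 1.92 CPM on plastic, at most 0.0638 CPM alone in Matrigel and at most 0.613 CPM in co-culture. Its log2 change was -11.54 ± 0.84 on plastic (adjusted p = 1.18e-06) and -12.35 ± 0.90 in co-culture (adjusted p = 1.37e-06). Alone in Matrigel about 3 counts were left, 0.00286% of day 0 (0.000585% to 0.00829%). Mug1, a murinoglobulin that traps proteases, had no counts on plastic, at least 6461-fold below day 0, and left 2 counts alone in Matrigel, 0.00971% of day 0 (0.00129% to 0.0386%). It fell by 11.28 ± 0.63 in co-culture (adjusted p = 7.65e-07), where its counts came from the first library only (0.78 CPM). The Serpina1 genes are near-identical copies: 82.2% of the 31-base windows of Serpina1c transcripts, 65.2% of those of Serpina1a and 44.7% of those of Serpina1b also occur in transcripts of other genes, so the split between them is uncertain. Taken as a family, Serpina1a, Serpina1b and Serpina1c summed to 4130 to 4227 CPM at day 0, 5.31 to 38.2 CPM on plastic, 133 to 219 CPM alone in Matrigel, 13.1 to 48.5 CPM in co-culture and at most 0.467 CPM in ICO. Serpina1b took 55.8% to 56.9% of the family at day 0 and, within that uncertainty, 72.3% to 78.9% in HSC alone in Matrigel and 46.1% to 50.7% in HSC from co-culture. Mug1 (42%, mostly with Mug2), Acaa1b (40%, with Acaa1a), Serpina3k (24.2%), Cyp3a11 (15.7%), Apoc4 (12.4%) and Cyp2e1 (5.83%) share windows with other genes too. Alb, Ttr, Hpx and the fibrinogens share none.

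Both cytochromes P450 fell. Cyp3a11, a drug-oxidising enzyme, went from 2102, 2146 and 2123 CPM to at most 0.587 CPM in any culture, a log2 change of -13.16 ± 0.70 on plastic (adjusted p = 5.17e-08) and -13.05 ± 0.70 alone in Matrigel (adjusted p = 1.07e-07). In co-culture 3 counts remained, 0.00237% of day 0 (0.000671% to 0.00951%). Cyp2e1, which oxidises ethanol, kept 0.762, 1.09 and 0.75 CPM on plastic, 2.04, 3.85 and 5.8 CPM alone in Matrigel and 0.138, 0.38 and 0.329 CPM in co-culture, against 773, 799 and 824 CPM at day 0. Its log2 change against day 0 was -9.86 ± 0.36 on plastic (adjusted p = 5.66e-10), -7.66 ± 0.31 alone in Matrigel (adjusted p = 2.09e-09) and -11.25 ± 0.40 in co-culture (adjusted p = 3.70e-10).

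Of the amino acid, purine and sugar enzymes, Fbp1 of gluconeogenesis and urate oxidase (Uox) each left 1 count on plastic, 0.00284% (8.57e-05% to 0.0189%) and 0.00378% (9.13e-05% to 0.0201%) of day 0. Alone in Matrigel Fbp1 again left 1 count, 0.00369% (8.87e-05% to 0.0195%), and so did Hpd of tyrosine breakdown, 0.0071% (0.000171% to 0.0375%). In co-culture tyrosine aminotransferase (Tat) had no counts, at least 7248-fold lower, and Uox left 2 counts, 0.00624% (0.00104% to 0.0309%). The tryptophan oxygenase Tdo2 kept the most of this group, up to 0.832 CPM on plastic, 1.54 CPM alone in Matrigel and 0.503 CPM in co-culture, against 216 to 227 CPM at day 0.

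All 3 genes of fatty acid metabolism fell, to different levels. Slc27a2, a fatty acid transporter of the peroxisome and cell membrane, was 363, 379.6 and 378 CPM at day 0 and had no counts in any of the 15 later libraries, at least 6401-fold lower on plastic, 6183-fold alone in Matrigel and 5404-fold in co-culture. Slc25a47, a liver mitochondrial carrier, settled at 1.55 to 3.18 CPM in every later library, from 180.0, 180.4 and 194 CPM at day 0. Its log2 change was -6.81 ± 0.19 on plastic (adjusted p = 4.82e-11), -6.25 ± 0.19 alone in Matrigel (adjusted p = 7.79e-11) and -6.45 ± 0.19 in co-culture (adjusted p = 7.19e-11). Acaa1b, a peroxisomal thiolase, stood at 3.73 to 10.2 CPM in every later library from 341 to 413 CPM at day 0.

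HSC alone in Matrigel held more RNA of the set than HSC on plastic. Of the 33 genes, 19 were higher in Matrigel and 0 lower (edgeR, adjusted p under 0.05), beside 29.9% of all 17020 genes tested higher and 25.2% lower. The median log2 difference was 2.42, or 2.29 with genes at 0 counts set at the floor, and that of all genes 0.14. When only the 6 libraries compared were fitted, 16 genes passed the low-count filter and 11 were higher. Hp, at 18.3, 10.9 and 5.38 CPM in Matrigel, had 1 count on plastic, 0.0163 CPM (95% exact Poisson interval 0.000492 to 0.108 CPM; adjusted p = 0.000563). Ttr was 125-fold higher (log2 6.74 ± 1.10 SE, adjusted p = 0.000674). F2 had 1.14, 0 and 0.658 CPM in Matrigel and no counts on plastic, at least 10.3-fold higher. Fga was 5.24 ± 1.36 higher (adjusted p = 0.00926). The Serpina1 genes were 7.18-fold (Serpina1b, log2 2.87 ± 0.60, adjusted p = 0.00268) and 7.71-fold higher (Serpina1c, log2 2.93 ± 0.77, adjusted p = 0.01), without overlap. Lcat was 17.5-fold higher (log2 4.07 ± 0.39, adjusted p = 2.42e-06), and Cyp2e1 4.49-fold (2.20 ± 0.34, adjusted p = 0.000147). Uox was 0.254, 0.509 and 0.637 CPM in Matrigel and had 1 count on plastic (adjusted p = 0.000395). The 2 groups did not overlap for Lcat, Cyp2e1 or Uox. Of the genes called higher, Uox, F2, Apob, Apoh and Apof passed the filter on low counts only through their day 0 level and not in the fit of these 6 libraries, so their p-values describe the larger fit and support nothing further. Apob was 2.42 ± 0.91 higher (adjusted p = 0.0387), Acaa1b 0.50 ± 0.16 (adjusted p = 0.0201) and Slc25a47 0.56 ± 0.19 (adjusted p = 0.0257). These 3 calls were each lost when 1 of several libraries was left out. For Apob the adjusted p was 0.109 and 0.111 without the first or the third plastic library. Without the first or the third Matrigel library it was 0.0566 and 0.239. For Acaa1b it was 0.119 without the first plastic library and 0.0666 and 0.0749 without the first or second Matrigel library. For Slc25a47 it was 0.0834, 0.0588 and 0.0807 without each plastic library in turn and 0.245 without the first Matrigel library. Macrophage and cholangiocyte marker sums were also higher in HSC in Matrigel than on plastic, in all 3 libraries, and their part in these differences was not tested. On plastic, 22 of the 30 genes with any count were highest in the second library, which held 5 of the 33 genes at 0 counts against 19 and 18 in the other 2. That library was also the deepest on plastic, at 22158674 estimated counts against 15430066 and 17029539. The share of all genes highest in it was not counted.

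In HSC from co-culture, calls in the set went in both directions, most of them lower. Against HSC alone in Matrigel, 2 of the 33 genes were higher and 10 lower, beside 17.3% and 13.8% of all 17020 genes tested. The median log2 difference was -0.74, or -0.85 with genes at 0 counts at the floor, and that of all genes 0.03. With only the 6 libraries compared, 16 genes passed the filter and 0 were higher and 3 lower: Cyp2e1, Serpina1a and Serpina1b. The total of 12 fell to 6 without the third library of HSC alone and to 5 without the third co-culture library.

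The genes that fell in co-culture were led by Serpina1b and Cyp2e1, whose groups did not overlap. Serpina1b was 9.28-fold lower (log2 -3.24 ± 0.62, adjusted p = 0.00307) and Cyp2e1 13.8-fold lower (log2 -3.59 ± 0.42, adjusted p = 3.76e-05). Ttr fell by 3.06 ± 0.82 (adjusted p = 0.019), with an adjusted p of 0.064 without the first and 0.0743 without the second co-culture library. Lcat fell by 1.03 ± 0.28 (adjusted p = 0.0123), which became 0.0728 without the third library of HSC alone and 0.0558 without the third co-culture library. Serpina1a was 3.41-fold lower without overlap (log2 -1.81 ± 0.59, adjusted p = 0.0426). That call was lost without any 1 of 5 libraries: the adjusted p was 0.0777, 0.0552 and 0.1 without each library of HSC alone in turn, and 0.12 and 0.129 without the second or the third co-culture library. The other genes counted as lower, Uox, Apoh, Tat, Apob and Tdo2, were near the detection limit. None of them passed the low-count filter in the fit of these 6 libraries, so their p-values support nothing further. Uox, Apoh, Tat and Apob passed it only through day 0, a group not compared here. Tdo2 passed it also in the fit of the 6 libraries of HSC on plastic and alone in Matrigel. Uox was 0.254, 0.509 and 0.637 CPM alone and 0, 0.101 and 0 CPM, or 2 counts, in co-culture (adjusted p = 0.00312). Apoh went from 0.635, 0.254 and 0.219 CPM to 1 count in the 3 libraries (adjusted p = 0.0141; 0.0563 without the third co-culture library). Tat went from 0.134 CPM to 0 counts, at least 1.94-fold lower (adjusted p = 0.0394; 0.0772 and 0.168 without the second or the third library of HSC alone, and 0.058, 0.0995 and 0.0848 without each co-culture library in turn). Apob went from 0.381, 0.0636 and 0.823 CPM to 1 count (adjusted p = 0.0284; 0.117 without the third library of HSC alone, and 0.067, 0.0753 and 0.0975 without each co-culture library in turn). Tdo2 had a log2 difference of -1.83 ± 0.61 (adjusted p = 0.0376), with overlap. The macrophage marker sum was lower in all 3 co-culture libraries as well, and its part in these differences was not tested.

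The genes called higher in HSC from co-culture were fibrinogen chains. Fga was 7.18, 1.27 and 1.15 CPM in HSC alone and 20.8, 4.94 and 17.4 CPM in co-culture, with overlap, a log2 difference of 2.16 ± 0.70 (adjusted p = 0.0423). Fgb was 8.64, 3.37 and 0.548 CPM alone and 31.8, 10.5 and 37.2 CPM in co-culture, without overlap, a difference of 2.68 ± 0.78 (adjusted p = 0.0278). Without the second library of HSC alone the adjusted p was 0.13 for Fga and 0.0932 for Fgb. Without the first co-culture library it was 0.114 and 0.0646, and without the third 0.121 and 0.0887. Without the third library of HSC alone it was 0.114 for Fga. Neither gene was called in edgeR without the low-count filter (adjusted p = 0.0898 and 0.0628). The same held with only the 6 libraries compared (0.129 and 0.115). Fgg and Hp did not pass the test (log2 2.59 ± 0.95, adjusted p = 0.067, and 1.70 ± 0.61, adjusted p = 0.0607). Fgg passed it without the first library of HSC alone (adjusted p = 0.00393) or the second co-culture library (0.0349), and Hp without the first library of HSC alone (0.0387) or the first co-culture library (0.00845).

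Of the fibrinogens, only Fgb kept the order of the cholangiocyte marker sum across the HSC libraries of both cultures. As a share of the mean level in ICO of the same culture, the cholangiocyte marker sum was 30.2%, 12.2% and 2.56% in the 3 libraries of HSC alone, and 29.7%, 14.2% and 39.7% in those from co-culture. Fgb stood at 27.2%, 10.6% and 1.73% of ICO alone, and at 37.7%, 12.4% and 44.1% of ICO in co-culture. Fga was 99.9%, 17.7% and 16% alone and 68.4%, 16.2% and 57.3% in co-culture. Fgg was 111%, 9.29% and 0% alone and 66.5%, 12.1% and 55.6% in co-culture. Both kept the order of the marker sum in HSC alone but were highest in the first co-culture library, where the sum was not. Hp was 20.8%, 12.4% and 6.11% alone and 11.7%, 35.9% and 82.1% in co-culture. Hpx was 32.2%, 15.2% and 27.4% alone and 37.9%, 30.6% and 81.3% in co-culture. Fga and Hpx lay above the marker sum in every HSC library from Matrigel. The HSC libraries with the most Fgb were those with the most cholangiocyte RNA in both cultures. The part of that RNA in the fibrinogen levels of HSC was not tested. Alb, Ttr and Lcat stood far above the marker sum in HSC alone. Alb was 1172%, 1054% and 955% of its mean in ICO alone, in the same order of libraries as the marker sum. Ttr was 2128%, 355% and 677%, and Lcat 355%, 586% and 765%, in other orders. In co-culture Ttr was 21.5%, 17.5% and 71.6%, in the order of the marker sum, and Alb (1516%, 72.2% and 352%) and Lcat (758%, 686% and 529.9%) were not.

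**Figure D3:**
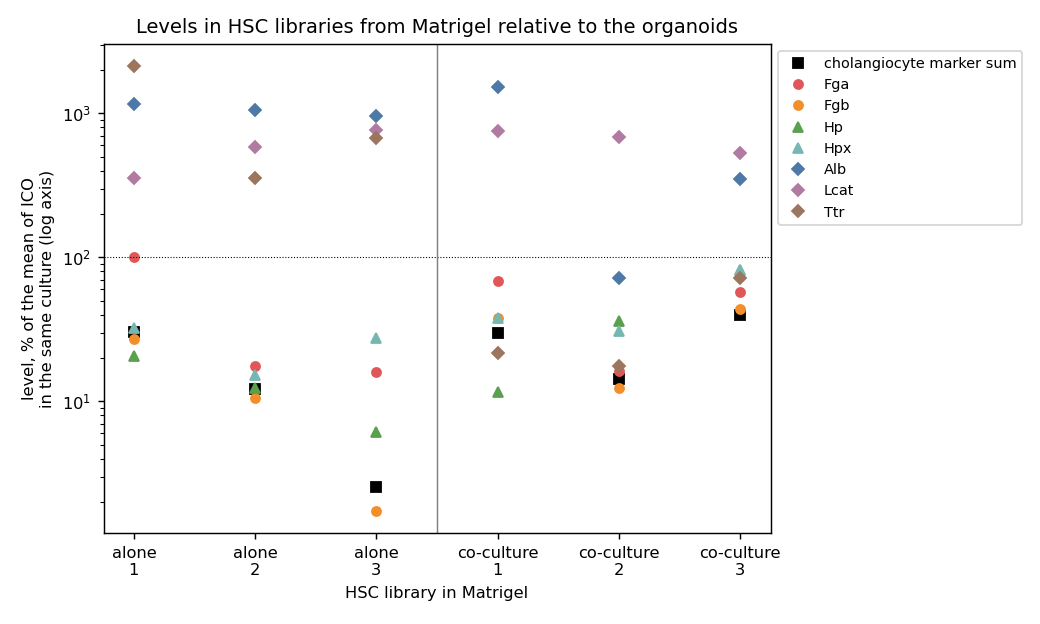
Level of 7 genes and of the cholangiocyte marker sum in each HSC library from Matrigel, as a percentage of the mean of ICO in the same culture (log axis; dotted line, 100%; each point is 1 library). Fgb keeps the order of the marker sum within each culture. Alb, Lcat, Fga and Hpx lie above the marker sum in every library, and Ttr does so in every library of HSC alone.

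ICO alone expressed a small part of the set. Of the 33 genes, 10 had no counts in the 3 libraries (Apoa2, Apoa5, Apoc3, Serpina3k, Cyp3a11, Fbp1, Hpd, Mug1, Slc27a2 and Tat), and 8 reached 1 CPM in each library (Alb, Ttr, Fga, Fgb, Slc25a47, Acaa1b, Hpx and Hp). Hp was 84.3, 71.7 and 108 CPM, and gave 54.6% of the summed CPM of the set. Fgb was 20.8, 32 and 42.5 CPM, Hpx 15.2, 13.6 and 13.8 CPM and Fga 4.1, 9.62 and 7.83 CPM. Alb was 2.56, 2.39 and 1.46 CPM, or 0.0255% of its day 0 mean in HSC. Hp was thus the gene of the set nearest to its day 0 level, and Fgb (3.79%), Acaa1b, Hpx, Fga and Slc25a47 were the others above 1% of it.

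In ICO from co-culture 3 genes were higher and 1 lower than in ICO alone, among the 9 of 33 that passed the filter on low counts; of all 13726 genes tested, 8.59% were higher and 7.96% lower. The median log2 difference of the 9 was 0.06 and that of all genes 0.00. Fga was 25.4, 28.8 and 37 CPM in co-culture, 4.23-fold above ICO alone (log2 2.05 ± 0.24, adjusted p = 3.32e-05). Fgb was 73.6, 74.1 and 105 CPM, 2.66-fold higher (log2 1.38 ± 0.25, adjusted p = 0.00795; 0.0583 without the second library of ICO alone). Neither gene's groups overlapped. Fgg was 0.219, 3.18 and 4.82 CPM alone and 11.2, 12.8 and 21.1 CPM in co-culture, also without overlap, but its difference did not pass the test (log2 2.45 ± 0.78, adjusted p = 0.105; 0.00102 without the first library of ICO alone, the lowest). Ttr rose 3.31-fold, from 1.61, 4.69 and 4.13 CPM to 10.4, 9.84 and 14.3 CPM (log2 1.70 ± 0.31, adjusted p = 0.00106). Hpx fell by 0.88 ± 0.19 (log2, adjusted p = 0.00379) to 7.1, 7.74 and 8.83 CPM, every library below ICO alone. Hp (72.9, 95.9 and 85.4 CPM in co-culture), Alb (0.352, 1.09 and 2.96 CPM), Acaa1b and Slc25a47 overlapped between the groups, with adjusted p of 0.728, 0.576, 0.897 and 0.984. All 4 calls were lost when all 18 libraries shared 1 estimate of the spread. The stellate marker sum was 3.96 to 59.7 CPM in ICO alone and 49.8 to 103 CPM in ICO from co-culture. Fga, Fgb, Fgg and Ttr were lower in each HSC library from the co-culture than in each ICO library from it.

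**Figure D4:**
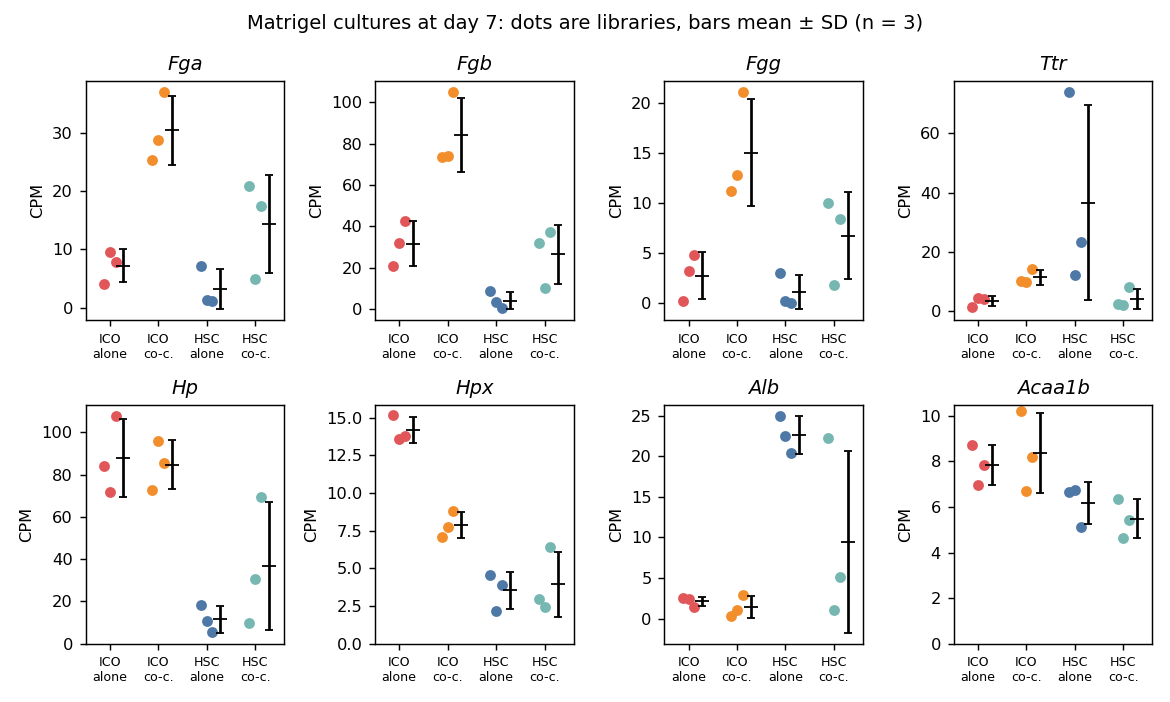
CPM of 8 genes in ICO and HSC from Matrigel, alone and in co-culture (co-c.); dots are libraries and the black bars give mean ± SD (n = 3). In ICO the fibrinogens and Ttr are higher in co-culture and Hpx is lower, while Hp overlaps; in HSC, Alb is above both ICO groups in every library of HSC alone.

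The cell types differed in which of these genes they held. Between ICO alone and HSC alone in Matrigel, 16 of the 33 genes passed the filter, and 3 were higher and 9 lower in ICO, beside 25.8% and 30.9% of all 16233 genes tested. The median log2 difference of the 16 was -2.16 and that of all genes -0.09. Higher in ICO were Hp (7.63-fold, log2 2.77 ± 0.64, adjusted p = 0.00535), Fgb (7.58-fold, log2 2.77 ± 0.76, adjusted p = 0.0126) and Hpx (4.01-fold, log2 1.84 ± 0.36, adjusted p = 0.000958). Lower in ICO were Alb (10.6-fold, log2 -3.56 ± 0.97, adjusted p = 0.0108), Ttr (10.5-fold, log2 -3.56 ± 0.77, adjusted p = 0.00314) and Cyp2e1 (19.1-fold, log2 -4.35 ± 0.86, adjusted p = 0.000988). The widest gap was in the Serpina1 genes. Serpina1a left 3 counts in ICO alone, 0.0818 CPM (95% exact Poisson interval 0.0163 to 0.232 CPM), against 33.4 CPM in HSC alone (adjusted p = 6.81e-07), and Serpina1b left 1 count in ICO alone, 0.0244 CPM (0.000669 to 0.147 CPM), against 129 CPM (adjusted p = 1.79e-06). Apoa1 was 19.9-fold lower in ICO (log2 -4.36 ± 1.52, adjusted p = 0.0289), and Lcat 5.69-fold (log2 -2.63 ± 0.88, adjusted p = 0.022). Apoa1 lost its call without the first library of HSC alone (adjusted p = 0.0681) and without each library of ICO alone in turn (0.0834, 0.0628 and 0.0911). Lcat lost it without the second or the third library of HSC alone (0.054 and 0.0645) and the first or the third of ICO alone (0.0553 and 0.0642). Fga and Fgg did not pass the test (adjusted p = 0.258 and 0.453), and did without the first library of HSC alone (0.00667 and 0.0356).

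Within the co-culture, 0 of 16 genes were higher in ICO than in HSC (15.6% of all 16233 genes tested were) and 6 were lower (24% of all). The median log2 difference of the 16 was -0.40 and that of all genes -0.05. Serpina1b was 0.103 CPM in ICO and 13.9 CPM in HSC (log2 -6.85 ± 0.74, adjusted p = 5.15e-05). Serpina1c had no whole count in ICO from co-culture, at least 86.1-fold below HSC. Ttr, the fibrinogens, Acaa1b, Hpx and Hp were lower in every HSC library than in every ICO library but did not pass the test. The Serpina1 genes, Serpina3k and Lcat stood the other way, higher in every HSC library. Alb (log2 -2.71 ± 0.97, adjusted p = 0.0488), Apoa1 (-4.68 ± 1.54, adjusted p = 0.0311) and Lcat (-2.71 ± 0.96, adjusted p = 0.0392) were lower in ICO. Each of these calls was lost when 1 of several libraries was left out. The first HSC library from co-culture held the highest level of Alb and Apoa1 there. Without it, the adjusted p was 0.259 for Alb, 0.584 for Apoa1 and 0.0713 for Lcat. Without the second ICO library from co-culture it was 0.136, 0.0953 and 0.113. The total of 6 fell to 3 without either of these libraries. Without the first ICO library it was 0.131 for Alb and 0.0721 for Apoa1, and without the third 0.0929 for Apoa1 and 0.134 for Lcat. Without the second HSC library it was 0.0893 for Lcat, and without the third 0.0524 for Alb and 0.0514 for Lcat. Hp, Hpx and Ttr were called higher in ICO without the third HSC library (0.0274, 0.00522 and 0.0479). With only the 6 co-culture libraries fitted, Fgb was called higher in ICO (log2 1.57, adjusted p = 0.0106). Alb and Lcat were not called in edgeR when the replicate number was added to the fit (adjusted p = 0.128 and 0.0577).

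The effect of co-culture differed between the cell types for Ttr. It rose by 1.70 (log2) in ICO and fell by 3.06 in HSC, and the difference of the effects was 4.86 ± 1.05 (adjusted p = 0.0114) in a fit of the 12 Matrigel libraries that was chosen after the values were seen. Of the 16 genes tested 1 had a larger and 0 a smaller effect in ICO, beside 8.08% and 9.08% of all 16233 genes. For Fga the difference was -0.02 ± 0.93 (adjusted p = 1) and for Fgb -1.20 ± 1.01 (adjusted p = 0.463), which does not show that the effects were alike.

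Other hepatocyte genes, listed by function, gave a wider view. Against day 0, 34 of 34 further hepatocyte enzymes and transporters were lower in each HSC culture. Of 31 further secreted proteins, 31 were lower on plastic, 28 alone in Matrigel and 30 in co-culture. Of all 17020 genes tested, 30.5%, 21.5% and 24.8% were lower in these cultures. In HSC alone in Matrigel against plastic, 17 of the 31 secreted proteins were higher and 0 lower (median log2 2.92), and so were 15 and 0 of 18 hepatocyte transcription factors (median 4.66), where all genes had a median of 0.14. Of the 34 further enzymes and transporters, 12 were higher and 2 lower (median 1.22), near the 29.9% of all genes that were higher. Of all genes, 25.2% were lower. All 34 were tested in the fit that holds day 0, though 13 had no counts on plastic and 9 had none alone in Matrigel. The lists were chosen with earlier results known, so these counts describe them and are no independent test. Hnf4a, the central hepatocyte regulator that bile duct organoids express too, was 40.5, 17.6 and 5.7 CPM in HSC alone in Matrigel and at most 0.147 CPM on plastic. It was 131, 108 and 104 CPM in ICO alone. In ICO from co-culture 5 of the 8 acute phase genes tested were higher and 1 lower than in ICO alone (median log2 0.64, all genes 0.00). Of all 13726 genes tested in ICO, 8.59% were higher and 7.96% lower. Lbp, which binds bacterial lipopolysaccharide, was 324, 337 and 341 CPM alone and 945, 809 and 769.9 CPM in co-culture, without overlap, and Saa3, a serum amyloid, was 41.9, 55.6 and 38.3 CPM alone and 15.4, 26 and 20.3 CPM in co-culture. Of the 11 further secreted proteins tested in ICO, 0 were higher and 3 lower. One of these was Rbp4, the retinol carrier that binds transthyretin (the Ttr product) in plasma, at 78.9, 79 and 70.6 CPM alone and 33.8, 34.6 and 32.4 CPM in co-culture. Of the 12 hepatocyte transcription factors tested, 1 was higher, near the 8.59% of all genes. Lower were 2, among them Hnf4a (73.6, 85.3 and 99.1 CPM in co-culture).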

How the data were processed

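RNA was amplified with Smart-seq2 and made into libraries with Nextera XT, per the labels' protocols; the method does not mark strand. The authors deposited a table of estimated counts per gene and library, not normalized. Listed without roles, per the submitters' processing notes, are the pseudoaligner kallisto (0.46.1), the build GRCm39 and DESeq2 (1.36.0); of the values for the 33 genes, 78.3% were whole numbers (within 0.01). The replicate number and group of each library came from its labels. Fragments from amplified cDNA carry no molecular identifiers, so intervals and floors cover counting error only.

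From these, counts were rounded to whole numbers and tested with edgeR 4.0.16 (R 4.3.3): TMM scaling, filterByExpr, robust quasi-likelihood fits and Benjamini-Hochberg adjustment over all genes tested, with calls at an adjusted p under 0.05. The 12 HSC libraries, the 6 ICO libraries and the 12 Matrigel libraries made 3 separate fits, with group as the only term. Levels are CPM with TMM factors over all 18 libraries. The SE of a log2 change was taken as its size over the root of the test's F value. A group at 0 counts has a floor of 3 counts over its libraries; intervals are 95% exact Poisson. Exon lengths and shared 31-base windows come from GENCODE vM21 (GRCm38), a build other than that of the counts, so no gene coordinates are given from it. Scripts were tested on simulated data.

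Also tried were DESeq2 1.42.0, RLE scaling, fits without the low-count filter or with a stricter one (10 CPM in 3 libraries), a fit of all 18 libraries, a replicate block, fits of only the 6 libraries compared and leaving out each library. The genes and lists were chosen with earlier results of these data known. All 33 genes are named; statistics are given, per comparison and function, for up to 2 called genes with the largest fitted change in each direction and for calls against the majority. Fgg, Hp and other genes that did not pass were added after their values were seen, and so was the test of the difference between the co-culture effects.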

Additional observations from a re-analysis of the deposited data

Results flagged for a closer look

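Ttr is the gene of the set whose co-culture effect differed between the cell types by a test of the difference itself: the log2 effect in ICO minus that in HSC was 4.86 ± 1.05 (edgeR, adjusted p = 0.0114). In ICO, Ttr was higher in 3 of 3 co-culture libraries than in any library alone, and in HSC it was lower in 3 of 3. It was called under each of the alternatives run for this contrast. With DESeq2 3 genes were called for it.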

How the results depend on the processing

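All 33 genes stayed lower than at day 0 in each HSC culture under every alternative, leaving out each library included (33 to 33), except that DESeq2 gave Alb no p-value and called 32. RLE scaling gave a day 0 sum of 33450 CPM and library totals alone 24788, against 31172. Counts of calls moved by over 1.5 times in these cases, whose cause was not tested beyond what follows from fewer genes or libraries. For HSC alone in Matrigel against plastic the 19 calls became 11 with only the 6 libraries compared, and 15 to 19 leaving out 1 library. For HSC in co-culture against HSC alone the 12 became 7 with no low-count filter, 3 with only the 6 libraries, and 5 to 14 leaving out 1 library. For ICO in co-culture against ICO alone the 4 became 0 in edgeR with all 18 libraries sharing the spread (5 at an unadjusted p under 0.05; DESeq2 on the 6 libraries called 4), 3 to 5 leaving out 1 library. ICO alone against HSC alone gave 10 to 14, the co-culture 3 to 7, and the difference of co-culture effects 1 to 1, but 3 with DESeq2.

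Same-numbered libraries did not deviate together from their group means: the deviations correlated at -0.253 to 0.059. This cannot exclude that same-numbered HSC and ICO libraries came from the same co-culture, which the labels do not state. A fit with the replicate number as a block gave 16 calls for Matrigel against plastic, 10 for HSC in co-culture against alone, 5 for ICO, where Fgg was then called (2.67, adjusted p = 0.0139), 12 for ICO alone against HSC alone, 4 within the co-culture and 1 for the difference of effects.

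Of 1301 single-gene values, 1186 kept direction and call, 90 lost the call, 16 gained it and 9 changed sign, all 9 of differences that were not called. Leaving out 1 library each, Hpx in HSC from co-culture against alone ranged from -0.42 to 0.49 (-0.07 without the second library of HSC alone). In ICO, Acaa1b ranged from -0.11 to 0.20 (-0.02 without the second library alone), Hp from -0.22 to 0.09 (0.01 without the first from co-culture) and Slc25a47 from -0.27 to 0.25 (-0.03 and -0.13 without the first or the third library alone). Depth limits the set after day 0: at these totals 3 counts over a group are 0.0583 CPM on plastic and 0.0691 CPM in HSC from co-culture.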
